A study of Homo sapiens with 6 samples.

Results

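MEF2 factors and the class IIa histone deacetylases that bind them were followed in MV4;11 cells. The group holds 7 genes of the 19775 measured. They are the factors MEF2A, MEF2C and MEF2D and the deacetylases HDAC4, HDAC5, HDAC7 and HDAC9, taken by gene symbol. Their RNA was read by 22 probe sets that name 1 gene each. For each gene its brightest probe set, on average over all 6 arrays, is reported first, and the others stand beside it. MEF2B, the remaining member of the factor family, was named only by a probe set that also names other genes and is not given a value.

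MV4;11 is a human acute myeloid leukaemia line with an MLL-AF4 fusion, and 1 line was studied. One group was kept for 3 h in the solvent DMSO (3 arrays), and the other for 3 h in 25 nM cortistatin A (3 arrays), a natural product that blocks the Mediator kinases CDK8 and CDK19. Values are deposited log2 RMA signals from single-colour Affymetrix arrays, on which a difference of 1 is a doubling, and errors of group means are SD over 3 arrays. A level is comparable between arrays for 1 probe set, not between probe sets.

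MEF2 proteins bind A/T-rich DNA through a MADS domain and act as activators or repressors depending on their partners. Class IIa deacetylases dock on MEF2 in the nucleus, bring in corepressors that carry HDAC3, and hold MEF2 target genes down. When kinases such as SIK, CaMK or protein kinase D phosphorylate the deacetylases, 14-3-3 proteins bind them, they leave the nucleus, and MEF2 is freed to activate. MEF2C is best known in heart, neurons and lymphoid cells, and in leukaemias with MLL fusions it is highly expressed and needed for growth.

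The sequences around the start sites are shown first, because some of them hold the element that MEF2 itself binds. The RefSeq promoter table (GRCh38.p14) holds 22 windows for 6 of the 7 genes, each running from 250 bases before a transcript start to 50 bases after it. HDAC5 is the gene with no window matched. Both strands were searched for the MEF2 consensus, which is C or T, then TA, 4 letters A or T, TA, and A or G. It is palindromic in form, so that a site counts once. It occurred in 3 of the 22 windows (13.6%), 1 each of MEF2A, MEF2C and HDAC9, and in 2.99% of the 35116 windows of the whole table. The form CTAAAAATAG, read on either strand, occurred in 2 of the 22 (9.09%) and in 0.142% of all windows. Windows of 1 gene can overlap, the shares were not tested, and a match is a string of letters, not a shown binding site. The matched windows held 61% G and C in MEF2A, 75% in HDAC9 and 32% in MEF2C. The shares were not adjusted for base composition. The windows with a match follow, on the strand of the gene, with the match in capitals. They are chr15:99565734-99566033 on the plus strand for MEF2A, chr7:18086575-18086874 on the plus strand for HDAC9, and chr5:88824295-88824594 on the minus strand for MEF2C.
MEF2A: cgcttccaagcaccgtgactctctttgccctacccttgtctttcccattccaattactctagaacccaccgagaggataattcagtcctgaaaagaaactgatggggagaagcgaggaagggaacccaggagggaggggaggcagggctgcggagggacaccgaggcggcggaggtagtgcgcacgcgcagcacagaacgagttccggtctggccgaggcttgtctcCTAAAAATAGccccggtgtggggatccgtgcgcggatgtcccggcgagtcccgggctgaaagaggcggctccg
HDAC9: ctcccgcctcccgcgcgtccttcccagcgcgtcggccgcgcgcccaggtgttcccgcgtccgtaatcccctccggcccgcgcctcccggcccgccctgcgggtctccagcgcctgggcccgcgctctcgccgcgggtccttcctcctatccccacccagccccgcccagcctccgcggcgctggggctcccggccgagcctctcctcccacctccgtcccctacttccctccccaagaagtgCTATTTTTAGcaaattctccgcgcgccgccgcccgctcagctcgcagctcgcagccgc
MEF2C: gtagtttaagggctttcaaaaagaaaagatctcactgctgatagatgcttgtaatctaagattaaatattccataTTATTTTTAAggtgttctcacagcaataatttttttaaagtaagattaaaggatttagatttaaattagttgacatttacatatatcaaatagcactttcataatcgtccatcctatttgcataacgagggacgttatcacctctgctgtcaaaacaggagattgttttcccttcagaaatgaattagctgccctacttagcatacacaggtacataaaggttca
In MEF2A the match begins 23 bases before the transcript start, in HDAC9 it begins 8 bases before it and reads CTAAAAATAG on the opposite strand, and in MEF2C it begins 175 bases before it. The MEF2C match differs from CTAAAAATAG, and the other 6 windows of MEF2C hold none. Transcript starts used in MV4;11 cells were not measured, so which of these windows is active there is not known from these data.

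The question put to these genes was whether their transcripts differ after 3 h of Mediator kinase inhibition. MEF2C stood higher and MEF2A lower with the drug, each with no overlap between the groups, and HDAC5 stood slightly lower. MEF2D, HDAC4, HDAC7 and HDAC9 differed by no more than 1.07-fold. Of the 7 genes 0 passed limma's test at an adjusted p under 0.05, where 0.582% of all genes did. An unadjusted limma p under 0.05 was reached by 3 of 7 (MEF2A, MEF2C and HDAC5), against 12.6% of all genes. The same 3 had groups that did not overlap, against 19.4% of all genes, with 1 higher (10.2% of all genes) and 2 lower (9.22% of all genes). The median change of the 7 genes was -0.04 on the log2 scale, and that of all genes was 0.01. The wells were plated in triplicate and are not said to be separate cultures, so p-values measure only how far these samples vary, and that variation may be technical. In a bulk extract fewer cells with a transcript and less of it per cell cannot be told apart.

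**Figure D1:**
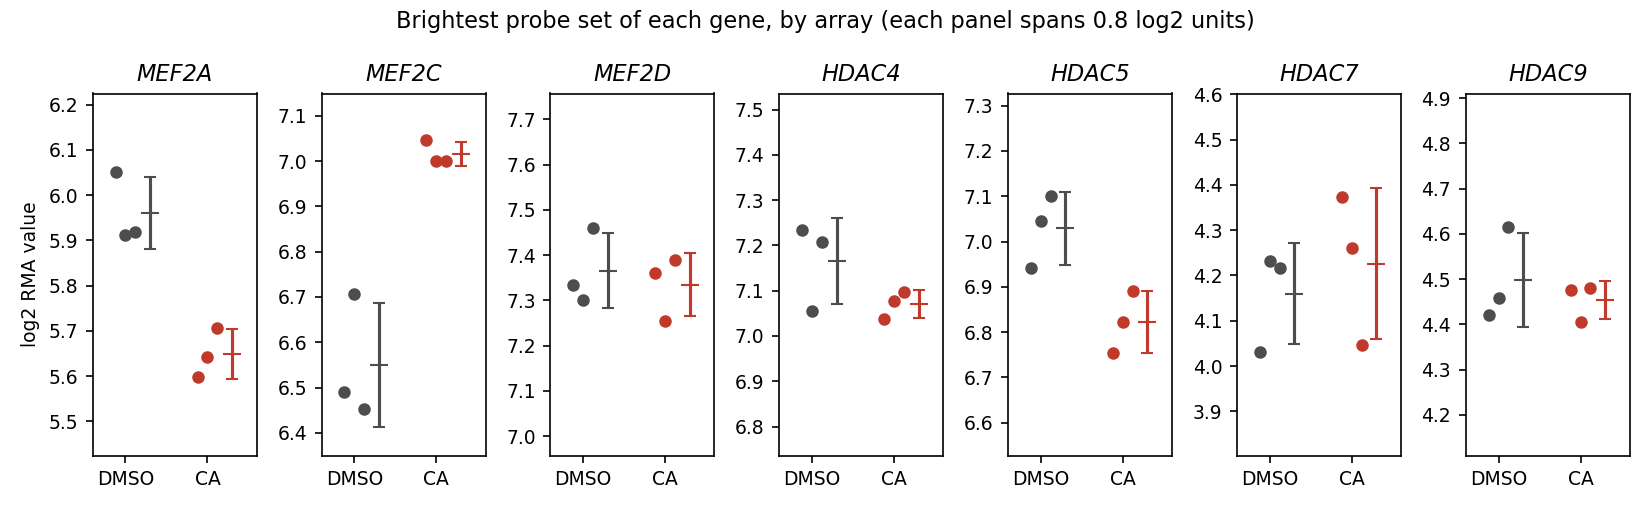
Log2 RMA value (vertical axis, each panel spanning 0.8 log2 units) of the brightest probe set of each gene on 3 DMSO arrays (grey) and 3 cortistatin A arrays (CA, red). Dots are arrays and bars are mean and SD. The dots of the 2 colours are apart for MEF2A, MEF2C and HDAC5 and mix for the other 4 genes.

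MEF2C, the member tied most closely to MLL leukaemia, gave log2 levels of 6.49, 6.71 and 6.45 on the DMSO arrays and 7.047, 6.9997 and 7.001 on the cortistatin A arrays. All drug arrays lay above all solvent arrays, and DMSO replicate 2 was the highest of the solvent arrays. The group means were 6.55 ± 0.14 and 7.02 ± 0.03 (SD, n = 3). The change was 0.47 ± 0.08 (standard error) on the log2 scale, or 1.38-fold, with a 95% interval of 1.22-fold to 1.57-fold higher and a limma adjusted p = 0.0720. In all, 81 genes had a larger rise. The second MEF2C probe set, 209200_at, read 5.59, 5.67 and 5.51 in DMSO and 6.0045, 5.96 and 5.80 with the drug. These groups were apart as well, with a change of 0.33 ± 0.08 (limma adjusted p = 0.269 over all probe sets), smaller by 0.13 than on the brightest probe set (two-sided exact permutation p = 0.1). The third, 207968_s_at, is dim (a mean below 3.75, the median of all probe sets), its groups overlapped, and it stood at 0.13 ± 0.08. The transcript antisense to this gene, MEF2C-AS1, is dim as well and stood at 0.01 ± 0.11 (limma adjusted p = 0.990).

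MEF2A, a broadly expressed factor of the family, gave 6.05, 5.91 and 5.92 in DMSO and 5.60, 5.64 and 5.71 with cortistatin A. Every drug array was below every solvent array, and the group means were 5.96 ± 0.08 and 5.65 ± 0.06 (SD, n = 3). The change was -0.31 ± 0.06, or 1.24-fold lower, with a 95% interval of 1.12-fold to 1.37-fold lower and a limma adjusted p = 0.118. All 4 MEF2A probe sets were lower with the drug. Probe set 208328_s_at read 5.70, 5.85 and 5.75 against 5.55, 5.39 and 5.56, again with no overlap and a change of -0.27 ± 0.08. Probe set 214684_at overlapped between the groups at -0.11 ± 0.09, apart from the brightest by 0.20 (two-sided exact permutation p = 0.1), and the dim 242176_at stood at -0.17 ± 0.07. The last did not overlap, although its groups lay only between 2.01 and 2.26.

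MEF2D, the third factor, gave 7.33, 7.30 and 7.46 in DMSO and 7.36, 7.26 and 7.39 with the drug. The groups overlapped, and the change was -0.03 ± 0.07 (limma adjusted p = 0.891). Its 95% interval ran from 1.14-fold lower to 1.09-fold higher, so a change of the size measured for MEF2C lies outside it. The other probe sets, 203003_at and 203004_s_at, stood at -0.05 ± 0.06 and 0.01 ± 0.06. For 203003_at the groups were apart by a small step, at 5.73 to 5.80 in DMSO and 5.70 to 5.71 with the drug.

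The shift of the factors against each other was also measured within each array. MEF2C minus the mean of MEF2A and MEF2D was -0.20, 0.10 and -0.24 on the DMSO arrays and 0.57, 0.55 and 0.45 on the cortistatin A arrays. The offset depends on the probe sets, and only its shift between groups carries meaning. That shift was 0.64 on the log2 scale, and the groups were apart (two-sided exact permutation p = 0.1, the lowest value possible with 3 arrays a group). MEF2C against MEF2A alone shifted by 0.78, MEF2C against MEF2D by 0.50 and MEF2A against MEF2D by -0.28, each without overlap and each with an exact permutation p = 0.1. Since MEF2C was higher and MEF2A lower on every drug array, the separation of MEF2C from MEF2A follows from those values and adds nothing to them. These 4 comparisons overlap in their genes and, with the one against the deacetylases below, make a family of 5 in which no adjusted value can fall below 0.1.

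**Figure D2:**
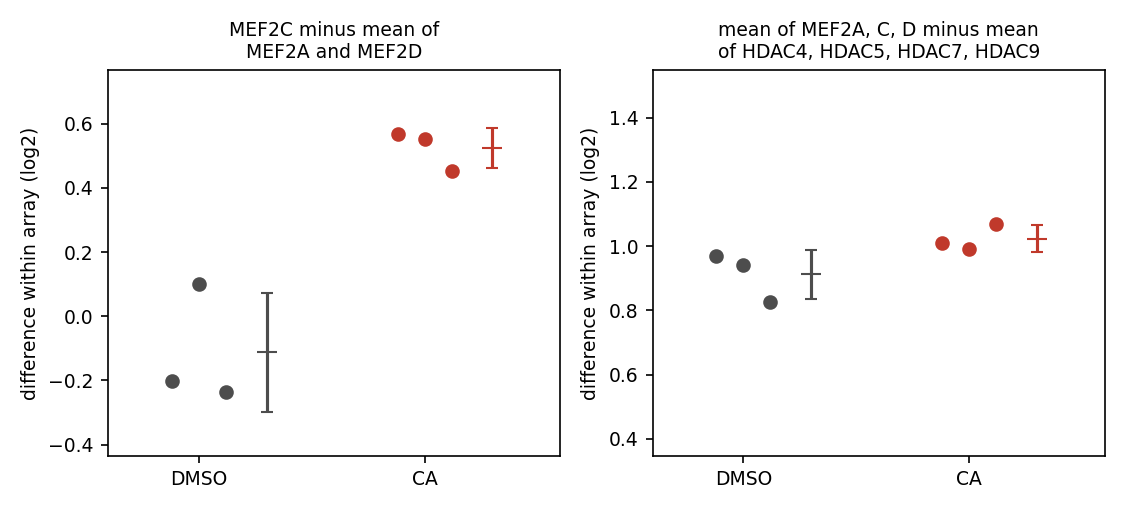
Difference within each array (log2, vertical axis) for MEF2C minus the mean of MEF2A and MEF2D (left) and for the mean of the 3 factors minus the mean of the 4 deacetylases (right), in DMSO (grey) and cortistatin A (CA, red). Dots are arrays and bars are mean and SD, and the left panel moves from -0.11 ± 0.19 to 0.52 ± 0.06 while the right panel moves by 0.11.

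Among the deacetylases, HDAC5, a signal-responsive repressor of MEF2 in muscle and other tissues, showed the one separation of the groups. Its levels were 6.94, 7.05 and 7.10 in DMSO and 6.75, 6.82 and 6.89 with cortistatin A. The groups were apart by a narrow step between 6.89 and 6.94. The change was -0.21 ± 0.06, or 1.15-fold lower, with a 95% interval of 1.04-fold to 1.28-fold lower and a limma adjusted p = 0.265. The other HDAC5 probe set, 229408_at, read 5.13, 5.01 and 4.96 in DMSO and 5.01, 5.22 and 4.88 with the drug. It overlapped and stood at 0.0017 ± 0.10. The 2 probe sets differed in their change by 0.21 (two-sided exact permutation p = 0.2, where 0.1 is the lowest value possible). With 3 arrays a group this cannot show whether they agree, and the mean of both gave -0.10 for HDAC5.

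HDAC4, the class IIa enzyme that SIK3 signalling keeps in check in MEF2C-dependent leukaemia, gave 7.23, 7.06 and 7.21 in DMSO and 7.04, 7.08 and 7.10 with the drug. DMSO replicate 2 fell among the drug arrays, and the groups overlapped. The change was -0.09 ± 0.06 (limma adjusted p = 0.597), with a 95% interval from 1.19-fold lower to 1.04-fold higher. Its other probe sets stood at -0.03 ± 0.10 (228813_at) and -0.06 ± 0.12 (1554322_a_at), so all 3 were slightly below 0 and none was apart.

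HDAC7, known for silencing MEF2 targets in thymocytes and lymphoid precursors, read 4.03, 4.23 and 4.22 in DMSO and 4.37, 4.26 and 4.05 with the drug. The groups overlapped over most of their range, at a change of 0.07 ± 0.10 (limma adjusted p = 0.835). The interval from 1.13-fold lower to 1.23-fold higher is the widest among the 7 genes. HDAC9, which also gives a short form without the catalytic domain, read 4.42, 4.46 and 4.62 against 4.48, 4.40 and 4.48, a change of -0.04 ± 0.07 (limma adjusted p = 0.834). Its other 4 probe sets were all dim and lay between -0.09 and 0.20. The second probe set of HDAC7, dim as well, stood at -0.11 ± 0.11. HDAC4-AS1, antisense to HDAC4, stood at 0.01 ± 0.08 (limma adjusted p = 0.987).

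The mean of the 3 factors minus the mean of the 4 deacetylases was 0.97, 0.94 and 0.82 on the DMSO arrays and 1.01, 0.99 and 1.07 on the cortistatin A arrays. The groups were apart by a narrow step between 0.97 and 0.99, with a shift of 0.11 (two-sided exact permutation p = 0.1). When all probe sets of a gene were averaged the shift was 0.06 and the groups overlapped (two-sided exact permutation p = 0.4). Without probe sets of the _x_at and _s_at types the shift was 0.11 (two-sided exact permutation p = 0.2). The mean of the factors joins opposite changes, MEF2C at 0.47 and MEF2A at -0.31, so the shift is not one that all factors share.

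Over the 22 probe sets of the 7 genes, 0 passed limma's test at an adjusted p under 0.05, where 0.0513% of all probe sets did. An unadjusted limma p under 0.05 was reached by 6 of 22 (10.3% of all probe sets), 3 of MEF2A, 2 of MEF2C and 1 of HDAC5. The groups did not overlap for 7 of 22 (16.5% of all probe sets), those 6 and 203003_at of MEF2D. Probe sets of 1 gene read the same RNA and are not independent.

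**Figure D3:**
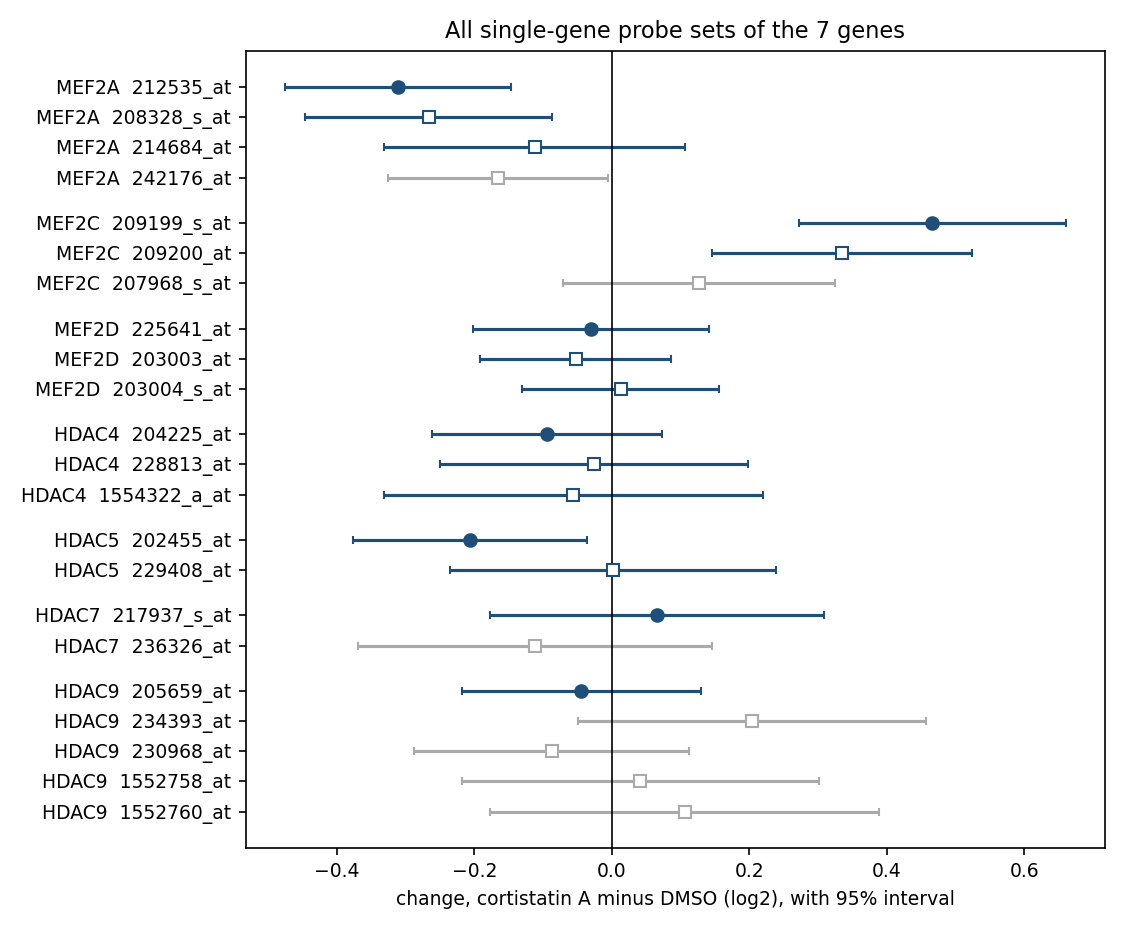
Change (horizontal axis, cortistatin A minus DMSO, log2) with its 95% interval from limma for the 22 probe sets of the 7 genes. Filled circles mark the brightest probe set of a gene, open squares the others, and grey the dim ones. The 4 MEF2A intervals centre left of 0, the 3 MEF2C intervals right of 0, and those of MEF2D and HDAC4 span 0.

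Whether MEF2A and MEF2C are called depended on the model. With trend and robust variances limma called both, MEF2C at an adjusted p = 0.000947 and MEF2A at 0.0282, where 3.85% of all genes were called. At the level of probe sets the same model called 1 of the 22, 209199_s_at of MEF2C, against 1.71% of all probe sets. With dim genes left out before the fit both were called (limma adjusted p = 0.0248 and 0.0423), against 2.54% of the genes tested. At an adjusted p under 0.1 MEF2C alone was called, against 1.31% of all genes. In the alternatives that test a change of any size the limma adjusted p ran from 0.000947 to 0.421 for MEF2C. For MEF2A it ran from 0.0282 to 0.456. The test against a fold of at least 1.2 asks another question, and neither gene was called in it. Over the 17 alternatives neither changed sign. Without any one of the 6 arrays both had an unadjusted limma p under 0.05, with changes of 0.42 to 0.54 for MEF2C and -0.34 to -0.27 for MEF2A. Since their groups do not overlap, leaving out an array could not turn these signs. HDAC5 no longer had an unadjusted p under 0.05 without DMSO replicate 3 or without cortistatin A replicate 1. HDAC4 had one without DMSO replicate 2. With the probe sets of each gene averaged HDAC5 had none either, and against a fold of at least 1.2 MEF2C alone had one.

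The arrays also differed in a 3' to 5' index of RNA quality, which is not a measure of transcript length. The 3' minus 5' signal of the ACTB and GAPDH control probe sets averaged 1.42 ± 0.05 in DMSO and 1.54 ± 0.07 with cortistatin A (SD, n = 3), with no overlap (two-sided exact permutation p = 0.1). ACTB alone was apart as well (two-sided exact permutation p = 0.1), while GAPDH alone overlapped, at 1.04 to 1.13 against 1.12 to 1.17 (two-sided exact permutation p = 0.3). With the averaged index as a covariate the changes were 0.60 for MEF2C, -0.39 for MEF2A and -0.29 for HDAC5. All 3 had an unadjusted limma p under 0.05. The other members also moved away from 0, HDAC7 to 0.29, HDAC4 to -0.20, MEF2D to -0.15 and HDAC9 to -0.13. Since the index did not overlap between the groups, this fit cannot cleanly separate it from the drug. In it 0 genes of the whole table were called and 1805 had an unadjusted limma p under 0.05. Markers fixed for myeloid leukaemia cells lay above the median of all probe sets for 7 of 7 measured (PTPRC, FLT3, CSF1R, LYZ, MPO, MEIS1 and SPI1). So did 3 of 5 lymphoid markers (CD3D, CD3E and CD79A, but not CD8A or MS4A1), 2 of 3 erythroid (ALAS2 and HBB), 2 of 4 muscle (MYOD1 and DES) and 0 of 3 neuronal ones. Such a rank is not a detection call. No marker was called by limma. The summed log2 level of the muscle markers was 13.73 to 14.11 in DMSO and 14.15 to 14.22 with the drug, while the sums of the other 4 lists overlapped between the groups. The part of RNA quality or of these markers in the changes of MEF2C and MEF2A was not tested further.

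The rest of the pathway was read from 7 lists with 75 genes, of which 71 were measured. Of these 1 gene passed the test, DUSP6, in the list of MEF2 targets. Over all genes 0.582% were called and 12.6% had an unadjusted limma p under 0.05, the shares against which the counts of each list stand. The lists were chosen with earlier results of these data known, so their counts are descriptive only. Corepressor partners of the class IIa enzymes stayed without a call (0 of 11 measured and 3 at an unadjusted limma p under 0.05, median -0.01). Those with the smallest p were TBL1X, a subunit of the HDAC3 corepressor (0.15 ± 0.05), ANKRA2, an ankyrin protein that binds class IIa enzymes (-0.26 ± 0.09), and BCOR, a BCL6 corepressor (0.19 ± 0.07), with limma adjusted p from 0.297 to 0.360. HDAC3 itself, which gives the complex its deacetylase activity, stood at 0.04 ± 0.05.

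Kinases and scaffolds that drive class IIa enzymes out of the nucleus gave 0 calls of 15 measured and 5 at an unadjusted limma p under 0.05 (median -0.03). The polarity kinase MARK2 stood at -0.19 ± 0.05, the inducible kinase SIK1 at 0.20 ± 0.06 and SIK3 at -0.19 ± 0.06, with limma adjusted p from 0.204 to 0.257. SIK3 read 6.60, 6.45 and 6.49 in DMSO and 6.33, 6.35 and 6.28 with the drug. SIK1 read 5.29, 5.32 and 5.37 in DMSO and 5.52, 5.45 and 5.60 with the drug. Both were without overlap, in opposite directions, and the difference between the 2 kinases was not tested. SIK2 stood at -0.09. The CREB coactivators that SIK kinases also control gave 0 calls of 3 and 1 at an unadjusted p under 0.05, with CRTC3 at -0.17 ± 0.05 (limma adjusted p = 0.230), CRTC2 at -0.03 and CRTC1 at 0.02.

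The 14-3-3 proteins, which carry the phosphorylated enzymes into the cytoplasm, gave 0 calls of 7 and 2 at an unadjusted limma p under 0.05 (median -0.0034). SFN, the stress-induced form, stood at 0.39 ± 0.10 (limma adjusted p = 0.189), YWHAH at -0.13 ± 0.05 and YWHAZ at -0.06 ± 0.05. In the calcineurin and coactivator list 0 of 12 were called and 2 had an unadjusted limma p under 0.05 (median -0.02, with MAPK14 and MAP2K3 not analysed here). The acetyltransferases EP300 and CREBBP, which compete with the deacetylases for MEF2, stood at -0.23 ± 0.05 (limma adjusted p = 0.131) and -0.17 ± 0.05 (limma adjusted p = 0.267). EP300 read 7.67, 7.64 and 7.71 in DMSO and 7.44, 7.41 and 7.46 with the drug, so its groups were apart. The calcineurin subunit PPP3R1 stood at -0.07 ± 0.05. Among the other histone deacetylases 0 of 7 were called and 0 had an unadjusted limma p under 0.05 (median 0.04), with HDAC10 at 0.15 ± 0.11, HDAC8 at 0.09 ± 0.08 and HDAC3 next by p.

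Among 17 genes listed as MEF2 targets 1 was called and it was higher, against 0.582% of all genes (median 0.03, against 0.01 over all genes). This list was chosen with earlier results of these data known, so its counts describe the list and are no test of MEF2 targets. An unadjusted limma p under 0.05 was reached by 4 of the 17, 1 higher and 3 lower, against 12.6% of all genes. DUSP6, known chiefly as a phosphatase of ERK feedback, read 8.37, 8.45 and 8.33 in DMSO and 8.85, 8.90 and 8.96 with cortistatin A. All drug arrays were above all solvent arrays, and DUSP6 rose by 0.52 ± 0.06 (limma adjusted p = 0.0248). Its change was 0.49 to 0.55 with any one array left out, but the call was then lost each time, at a limma adjusted p of 0.0969 to 0.119, and so it was with the RNA length index as a covariate (0.421). The call was also lost with the replicate number as a block (limma adjusted p = 0.191), with the variance not moderated (adjusted p = 0.0698) and against a fold of at least 1.2 (limma adjusted p = 0.648). EGR1, an immediate early factor driven mainly through serum response elements, stood at -0.54 ± 0.09 (limma adjusted p = 0.0720), and RGS2, an inhibitor of G protein signalling, at -0.30 ± 0.10 (limma adjusted p = 0.299). Others of the list stood on either side of 0, among them KLF4 at 0.30, BDNF at 0.36, NR4A2 at -0.17 and PPARGC1A at -0.31, none of them called. JUN stood at -0.01 ± 0.07, the orphan receptor NR4A1 at 0.09 ± 0.07 and KLF2 at 0.03 ± 0.12. By their mean level 9 of the 17 targets were not dim, and the muscle gene CKM and the neuronal gene ARC were among those that were.

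**Figure D4:**
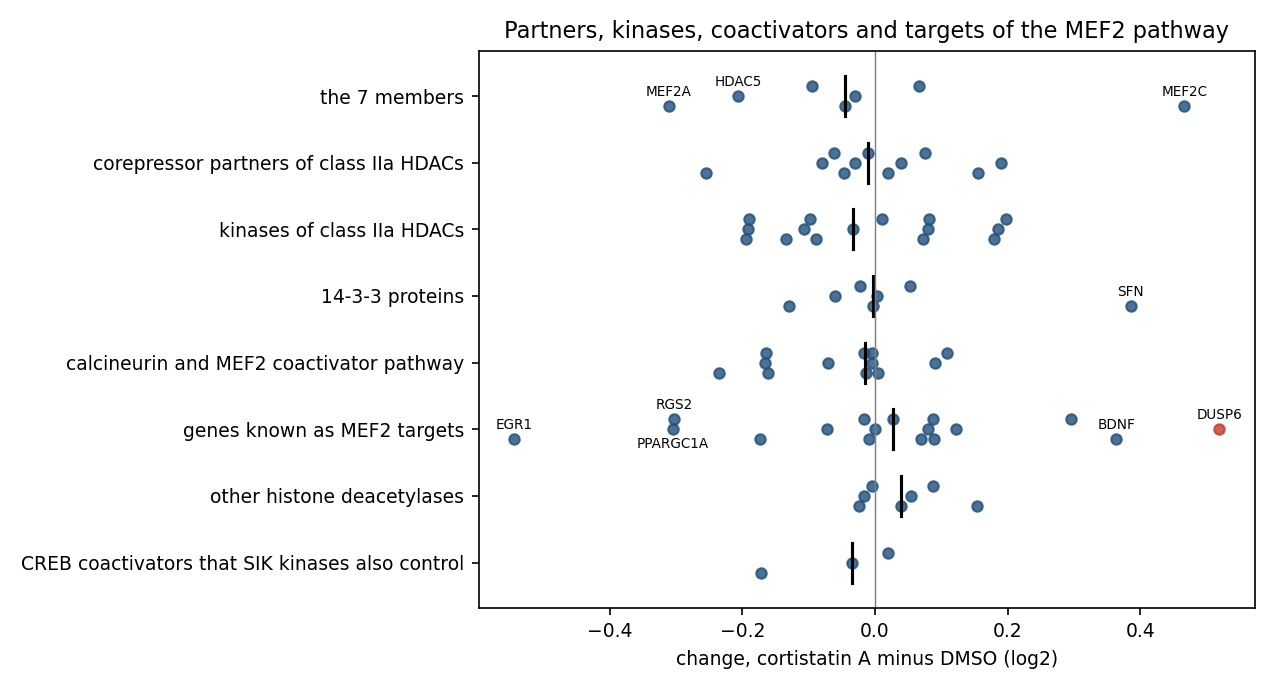
Change (horizontal axis, cortistatin A minus DMSO, log2) of the 7 genes and of the measured genes of 7 lists, 1 dot per gene, with a bar at each median. Red marks a limma adjusted p under 0.05, which DUSP6 alone reached, and MEF2C lies farthest to the right and MEF2A farthest to the left among the 7.

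The genes whose profile over the 6 arrays was most like that of each member were sought among the 12621 other genes above the median of all probe sets, by the mean absolute difference of gene-centred log2 values. For MEF2C these were ANKRD22 (0.01), the macrophage perforin gene MPEG1 (0.06) and DUSP6 (0.06), which changed by 0.47, 0.52 and 0.52. MPEG1 and DUSP6 passed limma's test (adjusted p = 0.0206 and 0.0248), and ANKRD22 did not (limma adjusted p = 0.0748). For MEF2A they were the mitochondrial deubiquitinase gene USP30, DIDO1 and the phosphatase gene SYNJ1, at distances of 0.01 to 0.02 and changes of -0.33, -0.34 and -0.33. None of these 3 passed (limma adjusted p from 0.0748 to 0.0968). For HDAC5 they were ZNF318, FAM199X and WDR7, at 0.02 to 0.03. For the other members they were ZNF367, MFF and TAPBP for MEF2D, LBX1-AS1, MAVS and PLAGL2 for HDAC4, MEX3A, BMERB1 and TMEM51-AS1 for HDAC7, and ARNT, ZBTB22 and VIT for HDAC9. With 6 arrays in 2 groups many genes share a step of the same size, so these distances describe likeness on these arrays only.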

How the data were processed

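Per the labels, total RNA of 6 samples, isolated with a column kit or TRIzol (not stated per array), was labelled with a 3' in vitro transcription kit and hybridised to 1 Affymetrix array each. The deposited table gives log2 values, which the authors made with RMA and the affy package, per the submitters' processing notes; versions and settings are not given in the sources used here. The log2 scale was inferred from RMA and from the range of 0.81 to 13.84. RMA usually equalises the arrays, which would remove a shift of all transcripts. Precision is limited by the number of arrays, since depth is no property of them.

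Of 54675 probe sets 62 are controls, 41091 name 1 gene, 1801 name several and 11721 are unnamed in the annotation used here. Symbols followed RefSeq identifiers for 41037 and the platform for 54. The brightest single-gene probe set stood for each of 19775 genes, with no filter. Groups came from sample titles. The array medians were 3.74 to 3.77.

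Genes and, separately, all 54613 non-control probe sets were compared with limma 3.58.1 in R 4.3.3 (lmFit, eBayes, group only, two-sided, Benjamini-Hochberg adjusted p under 0.05, 4 residual and 2.68 prior degrees of freedom). Single differences within arrays used an exact permutation test. Named were all members, list genes past the threshold or among the 3 smallest p, and the 3 most alike profiles; SIK2, JUN, NR4A1, NR4A2, KLF2, KLF4, BDNF, PPARGC1A, CKM, ARC and the antisense genes were added after values were seen. Members and lists were chosen with earlier results of these data known. The gene step was tested on simulated data, with changes set in genes above the median. Noise was drawn from limma's prior distribution of variances, alike at all signal levels, so recovery on the real arrays may differ. In the simulated data the gene step recovered 3% of changes of 1.2-fold, 69% of 1.5-fold and 90.2% of 2-fold. On average 4.00% of its calls were false. A gene not called can thus still hold a change of the size measured for these members. At most 678 values were identical between 2 arrays. The alternatives are listed with their effect in the closing section.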

Additional observations from a re-analysis of the deposited data

How the results depend on the processing

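Settings changed one at a time were a block for the replicate number, the removal of dim genes and the average over the probe sets of each gene. Others were the removal of the _x_at and _s_at types, a further quantile normalization, arrays centred on their median, and trend and robust variances. The 3' to 5' index (3' minus 5' signal) as a covariate and an equal-variance two-sample test without moderation were also used. The last were an adjusted p under 0.1, a fold of at least 1.2, and each array left out. Of the 119 values for the change of a member under these 17 settings 107 kept their direction and their side of the threshold, 5 passed it and 7 turned in sign, and the cause was not tested. Against 0 members called, 2 were called with dim genes left out (MEF2C 0.47, MEF2A -0.31) and 2 with trend and robust variances (MEF2C 0.47, MEF2A -0.31), and 1 at an adjusted p under 0.1 (MEF2C 0.47). Among member probe sets 1 was called with trend and robust variances. With probe sets averaged HDAC7 was at -0.023 and HDAC9 at 0.044, and without the _x_at and _s_at types HDAC7, left with a dim probe set, was at -0.11. With arrays left out in turn MEF2D lay between -0.062 and 0.017, HDAC7 between -0.0072 and 0.16 and HDAC9 between -0.083 and 0.014. MEF2D turned when DMSO replicate 3 (0.017) or cortistatin A replicate 2 (0.0095) was left out, HDAC9 without DMSO replicate 3 (0.014) and HDAC7 without cortistatin A replicate 1 (-0.0072). Against 1 pathway gene called, DUSP6, alternatives chosen after seeing the data gave 5 with trend and robust variances (DUSP6, EGR1, EP300, SFN and TBL1X), 0 with the index and 0 without any one array. With dim genes left out the pathway genes called were DUSP6, EGR1 and EP300, and at an adjusted p under 0.1 they were DUSP6 and EGR1. Same-numbered arrays did not deviate together (correlations across genes of -0.05, 0.01 and 0.02), so the numbers were not taken as pairs. With the replicate block 0 pathway genes and 0 genes of the table were called, 2243 had an unadjusted limma p under 0.05, and among them were MEF2A, MEF2C and HDAC5. The number of genes called in the table moved by more than 1.5 times from 115 in every setting but the further quantile normalization (138) and the centring (88): it was 321 with dim genes left out, 762 with trend and robust variances, 260 at an adjusted p under 0.1, 76 with the mean of probe sets, 54 without the _x_at and _s_at types, 25 without moderation, 3 at a fold of at least 1.2, 0 with the index or the block and 0 to 4 with an array left out. Of the 22 member probe sets 7 lie below the median signal of all probe sets, and how far a true difference shows at such levels was not tested.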

Other observations

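HDAC4-AS1 was listed at the same value, 4.0743, on all 3 DMSO arrays, and at 3.91, 4.21 and 4.13 on the cortistatin A arrays, so its spread in DMSO is not a measured error.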
